A study of Mus musculus with 30 samples.

Results

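Liver RNA of control CD-1 female mice was compared between postnatal day 21 (PND21), the usual age of weaning, and postnatal day 42 (PND42), in adolescence. The comparison used 7 of the 30 libraries of the series, 3 at PND21 and 4 at PND42, chosen by age, sex and exposure label and not by any measured value. CD-1 is an outbred stock, and no genetic modification is named in the labels. The labels give these animals the exposure Control and say no more of their treatment, while the exposed groups of the series carry 500 ppb CdCl2, cadmium chloride, in a study of gestational exposure. Used only for reference were 4 control females at PND1, 4 control males at PND42, and the exposed females, 3 at PND21 and 4 at PND42.

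The PND21 libraries were read on lane 3 and the PND42 libraries on lane 5, and the ages were deposited in separate tables. Age and lane therefore cannot be told apart, and the text keeps to large changes and to rank changes within a library. Levels are normalised read counts: reads divided by a size factor computed over all 7 libraries together. They are not per length and are compared only within a gene. Of the 4 PND42 libraries, 1 has a column name that shows its group but no known replicate. The animal tag in that name belongs, in the labels, to replicate 1 of the PND21 controls. It is called the unnumbered library, and counts of genes are given with and without it. PND21 replicate 1 stood apart from the other PND21 libraries in several measures below, and counts are given without it too. The labels do not say whether libraries came from separate litters, so p-values measure the spread between these libraries.

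Libraries held 22.0 to 24.6 M reads at PND21 and 28.7 to 40.1 M reads at PND42. The summed level of 8 hepatocyte markers, the check on the tissue label, ran from 2166000 to 4339000 normalised counts at PND21 and from 2867000 to 3894000 at PND42, so the ages overlapped. Xist, expressed from the inactive X chromosome, stood at 25220 to 39960 at PND21 and 32330 to 56370 at PND42, against 32.3 to 52.1 in the PND42 males. No library was a copy of another: at most 0.507% of genes had the same read count in any pair.

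The mouse liver stops making blood cells soon after birth, switches off fetal and imprinted growth genes during suckling, and takes on its adult enzymes around weaning, when a milk diet rich in fat gives way to chow. Adult male and female livers then come to differ, because males release growth hormone in pulses and females nearly continuously, and this pattern sets the level of many cytochrome P450, sulfotransferase and urinary protein genes from puberty. Cholesterol synthesis is driven by SREBP2, a transcription factor released when sterols in the cell are low.

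Of 12784 genes tested, 45 were called higher at PND42 by at least 4-fold at an adjusted p under 0.05 (0.352% of the genes tested) and 137 lower (1.07%), with limma and Benjamini-Hochberg adjustment. At 2-fold, 371 genes were higher (2.9%) and 735 lower (5.75%). The levels of the ages did not overlap, higher at PND42, for 2214 genes (17.3%), and lower for 2208 (17.3%). The median log2 difference over all genes tested was -0.0016. Without the unnumbered library the 4-fold counts were 37 higher and 119 lower, without PND21 replicate 1 they were 29 and 60, and without both 22 and 40. Of the 4-fold calls 24.7% were higher at PND42, against 35.2% with scaling by total reads, which moved the median of all genes to 0.147, and 39% with quantile normalisation. At 2-fold, scaling by total reads gave 4.97% of genes higher and 4.2% lower. The exposed females, compared in the same way, gave 54 genes higher (0.422%) and 181 lower (1.42%).

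Genes that are known to be higher in adult female than in male liver were among the leading rises, with 8 of the 45 genes called 4-fold higher. Of 37 listed genes 35 were tested, and at 4-fold 8 were called higher and 0 lower, where the shares over all genes were those above. At 2-fold 13 rose and 0 fell, the median log2 difference was 1.01, and in 14 of the 35 the PND42 libraries all stood above the PND21 libraries. The 4-fold count was 5 without the unnumbered library, 7 without PND21 replicate 1 and 5 without both.

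The largest rise was in Sult3a1, a sulfotransferase (mm10 chr10:33857721-33879532). Its level was 49.4, 619 and 37.8 normalised counts in PND21 replicates 1, 2 and 3, and 17120, 7710, 5057 and 15860 in PND42 replicates 2, 3 and 4 and the unnumbered library. Every PND42 library was above every PND21 library, and PND21 replicate 2 was well above the other PND21 libraries. The log2 difference was 6.57 ± 1.11 (SE; limma, adjusted p = 0.0157). In the PND42 males it stood at 9.92 ± 6.63 (SD, n = 4). Reads of its close relative Sult3a2 may be shared with it.

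A1bg, which encodes alpha-1-B glycoprotein, a plasma protein (chr15:60896859-60923012), was at 383, 1672 and 1072 at PND21 and at 81770, 59560, 34250 and 46870 at PND42. Its lowest PND42 library lay far above its highest PND21 library. The log2 difference was 5.90 ± 0.50 (SE; limma, adjusted p = 0.00132), and the male level was 35.2 ± 15.4 (SD, n = 4). At PND1, A1bg stood at 0 counts in 3 libraries and at 1.61 in the other.

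Among the cytochrome P450s of this list, Cyp2b13 was at 74.0, 349 and 120 at PND21 and at 2652, 7114, 6067 and 5213 at PND42, a log2 difference of 5.07 ± 0.56 (SE; limma, adjusted p = 0.00337). Cyp2a4, a steroid hydroxylase, was at 167, 1387 and 1376 and then at 22920, 14440, 8853 and 16980, a difference of 4.45 on the log2 scale. Cyp3a41a was at 68.6, 313 and 720 and then at 4324, 9438, 1731 and 6760, a difference of 4.22. In these P450s, too, the ages did not overlap, and PND21 replicate 1 was the lowest library of its age. The calls of Cyp2a4 and Cyp3a41a were lost without the unnumbered library or PND42 replicate 3, and that of Cyp3a41a also without PND42 replicate 2 or PND21 replicate 2. The Cyp2a4 and Cyp2a5, Cyp2b9 and Cyp2b13, and Cyp3a41a, Cyp3a41b, Cyp3a16 and Cyp3a44 sequences are nearly identical within each set, so how reads were divided among them is uncertain.

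Further members rose from a higher level. Cyp3a44 was at 1866, 1251 and 3044 at PND21 and at 7471, 14700, 13260 and 14930 at PND42, a log2 difference of 2.66 that was called. Acot3, a peroxisomal acyl-CoA thioesterase, rose by 2.88 on the log2 scale, from 203, 244 and 264 to 2563, 1825, 1004 and 1939. Cyp2c69 rose by 2.02, Slc22a26, an organic anion carrier, by 1.78, Cyp2b9 by 1.74, Abcd2, a peroxisomal transporter of very long chain fatty acids, by 1.64, and Cyp2c40 by 1.01. The Slc22a26 call was lost without PND21 replicate 1.

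Of the other genes of known female bias, Hao2, Cux2 and Cyp3a16 were not called. Hao2, a hydroxyacid oxidase, differed by 0.63 ± 0.24 (SE; limma, adjusted p = 0.0837). Cux2, a repressor of male-biased genes in female liver, was at 701, 970 and 1349 and then at 3163, 283, 2006 and 1196, with PND42 replicate 3 below all PND21 libraries and an adjusted p of 0.814 in limma. Cyp3a16, at 21.9, 816 and 412 and then at 6970, 3405, 1392 and 5590, did not overlap between the ages but had an adjusted p of 0.0885 in limma.

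Over all genes, 67 of 13054 tested were called at least 4-fold higher in PND42 control females than in PND42 control males (0.513%) and 77 lower (0.59%). These female libraries are the same as those of the age comparison, so the values stand side by side only. Of the 45 genes called 4-fold higher at PND42 than at PND21, 12 were also called 4-fold higher in females than in males. One is Gm6135, with no established role, at 102, 266 and 135 at PND21, at 3177, 1292, 2879 and 1141 at PND42, and at 46.6 ± 15.1 (SD, n = 4) in the males.

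**Figure D1:**
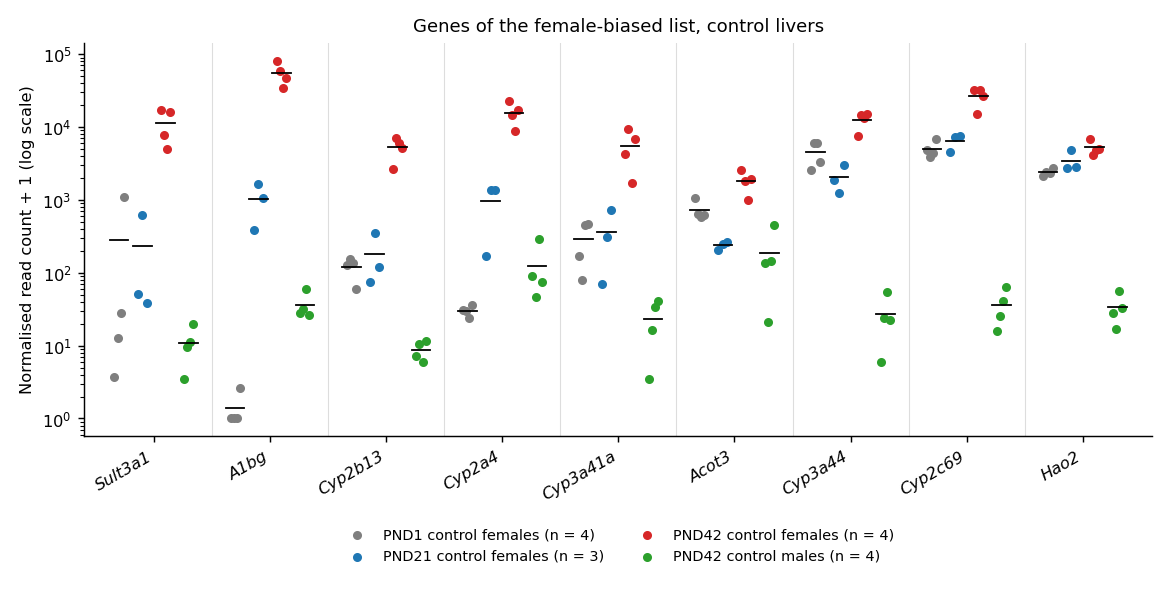
Normalised read count plus 1, on a log axis, of 9 genes of the female-biased list in control females at PND1 (grey, n = 4), PND21 (blue, n = 3) and PND42 (red, n = 4) and in control males at PND42 (green, n = 4); each point is a library and each line the mean of its group. Sult3a1 and A1bg were far higher at PND42 than at PND21, and Hao2 differed less.

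Male-biased liver genes gave fewer calls. Of 31 listed genes 26 were tested, 1 was called lower at 4-fold and 0 higher, 2 were lower and 1 higher at 2-fold, and the median log2 difference was -0.17. Over all genes 1.07% were lower and 0.352% higher at 4-fold. At 2-fold 5.75% of all genes were lower and 2.9% higher, and the 2-fold counts of this list lie near those shares. The called gene was Cspg5, a chondroitin sulfate proteoglycan, at 41.1, 27.9 and 42.8 at PND21 and at 15.3, 5.89, 0.697 and 6.14 at PND42, a difference of -2.63. It lost its call without any one of the PND21 libraries or PND42 replicate 3, and with quantile normalisation. Bcl6, a repressor of female-biased genes in male liver, was at 749, 605 and 834 and then at 206, 328, 318 and 632, with the unnumbered library inside the PND21 range. Its log2 difference was -1.08 ± 0.32 (SE; limma, adjusted p = 0.0429), and that call was lost without any one of 6 libraries. The major urinary protein gene Mup20 was at 1537, 696 and 2303 and then at 907, 348, 764 and 707, against a male level of 109314 ± 42004 (SD, n = 4). Of 9 major urinary protein genes tested 1 was called higher at 4-fold and 0 lower, against 0.352% and 1.07% of all genes. Their median log2 difference was -0.04. Without the unnumbered library 0 were called at 4-fold. Reads of major urinary protein genes cannot be assigned to single copies with certainty.

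Genes of the hormone axes that set these patterns moved unequally. Onecut1, a hepatocyte transcription factor of the growth hormone axis list, was at 75.4, 30.3 and 127 and then at 394, 531, 135 and 317. Its difference of 2.20 passed the test (limma, adjusted p = 0.0328) but not without any one of 5 libraries, the unnumbered library and PND21 replicate 1 among them. Igf1r, the receptor of insulin-like growth factor 1, was at 447, 387 and 291 and then at 174, 81.7, 201 and 102, a difference of -1.49 that passed the 2-fold rule, though not without PND21 replicate 1.

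The transcripts of Ghr, Igf1, Prlr and Esr1 gave no large difference, and hormone signalling itself was not measured. Ghr, the growth hormone receptor, was at 31910, 18150 and 22430 at PND21 and lay within 15810 to 16100 at PND42, with an adjusted p of 0.0906 in limma. Igf1, its main secreted target, differed by -0.56 ± 0.28 (SE; limma, adjusted p = 0.175), Prlr, the prolactin receptor, by 0.32 ± 0.27 (adjusted p = 0.419) and Esr1, the estrogen receptor, by -0.56 ± 0.44 (adjusted p = 0.390). Of the 18 genes of the growth hormone and IGF list, 1 was called higher at 2-fold and 2 lower, against 2.9% and 5.75% of all genes.

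Cholesterol synthesis genes rose, both before and after the squalene step. All 26 listed genes were tested: 11 were called higher at 2-fold and 0 lower, against 2.9% and 5.75% of all genes, and 1 was called higher at 4-fold. Their median log2 difference was 0.82, 25 of the 26 had a higher mean at PND42, and in 16 the ages did not overlap. The 2-fold count was 10 without the unnumbered library, 7 without PND21 replicate 1 and 6 without both.

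The largest rise of the pathway was in Idi1, isopentenyl diphosphate isomerase, which makes the building block of the isoprenoid chain (chr13:8885501-8892451). It was at 39.8, 25.5 and 16.4 at PND21 and at 232, 501, 246 and 448 at PND42. The lowest PND42 library was several times the highest PND21 library, the log2 difference was 3.67 ± 0.37 (SE; limma, adjusted p = 0.00105), and the PND42 males were at 72.3 ± 11.9 (SD, n = 4). Of the earlier steps, Pmvk, phosphomevalonate kinase, rose by 1.10 on the log2 scale and Fdps, farnesyl diphosphate synthase, by 1.26. The Fdps call (limma, adjusted p = 0.0412), at 30.3 to 42.5 counts at PND21 and 48.0 to 131 at PND42, was lost without any one of 6 libraries, the unnumbered library and PND21 replicate 1 among them.

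The sterol steps named here rose by 1.2 to 1.7 on the log2 scale. Sqle, squalene epoxidase, was at 923, 1111 and 1394 at PND21 and at 3798, 3215, 4028 and 3702 at PND42, a difference of 1.70 ± 0.17 (SE; limma, adjusted p = 0.00105). The PND42 libraries of Sqle lay close together and all above the PND21 libraries. Cyp51, lanosterol demethylase, rose by 1.55, Msmo1, a methylsterol oxidase, by 1.49, Sc5d, a sterol desaturase, by 1.27 and Fdft1, squalene synthase, by 1.16. Without PND21 replicate 1 the call of Fdft1 was lost.

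Outside the enzymes, Stard4, an intracellular sterol carrier, rose by 1.05. Hmgcs1, the synthase at the head of the pathway, was at 13270, 8535 and 9366 and then at 21020, 4141, 31730 and 7133: PND42 replicate 3 and the unnumbered library were below all PND21 libraries, and the other PND42 libraries were above them. Srebf2, the gene of SREBP2, differed by 0.15 ± 0.18 (adjusted p = 0.577 in limma).

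Because 11 genes of this list were called higher and 0 lower, promoters of 4 called members are shown: the 250 bases before the RefSeq start site, on the strand of the gene, from RefSeq on GRCm38.p6. Capitals mark CCAAT, the core of the site of NF-Y, a factor known to act with SREBP2, and TCACNCCA, a form of the sterol regulatory element, each on either strand (CCAAT on the other strand reads ATTGG); no overlap between the motifs occurs in these 4.
Idi1 (chr13:8885356-8885605, plus strand): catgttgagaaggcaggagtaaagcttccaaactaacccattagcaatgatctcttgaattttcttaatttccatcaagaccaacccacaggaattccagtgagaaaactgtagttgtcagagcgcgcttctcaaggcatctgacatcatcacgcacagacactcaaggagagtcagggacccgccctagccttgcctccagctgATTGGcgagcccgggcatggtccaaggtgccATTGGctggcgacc
Cyp51 (chr5:4104698-4104947, minus strand): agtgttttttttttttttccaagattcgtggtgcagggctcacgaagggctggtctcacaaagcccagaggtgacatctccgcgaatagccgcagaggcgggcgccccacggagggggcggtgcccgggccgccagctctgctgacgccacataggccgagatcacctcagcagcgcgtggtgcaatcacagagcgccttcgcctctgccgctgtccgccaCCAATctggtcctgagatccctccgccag
Msmo1 (chr8:64733579-64733828, minus strand): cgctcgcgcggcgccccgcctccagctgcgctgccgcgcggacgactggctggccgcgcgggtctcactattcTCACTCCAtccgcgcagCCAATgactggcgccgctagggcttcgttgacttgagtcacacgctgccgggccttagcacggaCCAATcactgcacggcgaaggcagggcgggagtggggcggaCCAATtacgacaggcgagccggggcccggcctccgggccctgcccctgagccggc
Sc5d (chr9:42264301-42264550, minus strand): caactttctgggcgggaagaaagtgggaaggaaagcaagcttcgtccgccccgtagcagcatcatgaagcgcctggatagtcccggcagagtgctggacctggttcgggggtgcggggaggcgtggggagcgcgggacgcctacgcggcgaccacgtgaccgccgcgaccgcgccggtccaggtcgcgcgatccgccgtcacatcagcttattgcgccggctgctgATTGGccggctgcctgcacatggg
Idi1 holds CCAAT at 2 places, Msmo1 at 3, and Cyp51 and Sc5d at 1 each, and Msmo1 also holds 1 TCACNCCA. Promoters were found for 18 of the 26 listed genes, of which 16 (88.9%) held CCAAT, against 36.5% of the promoters of 9785 tested genes and 7 of 26 (26.9%) in the female-biased list. TCACNCCA was in 3 of 18 (16.7%) and in 3.11% of all. A match to these letters is a description of the sequence and does not show binding.

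**Figure D2:**
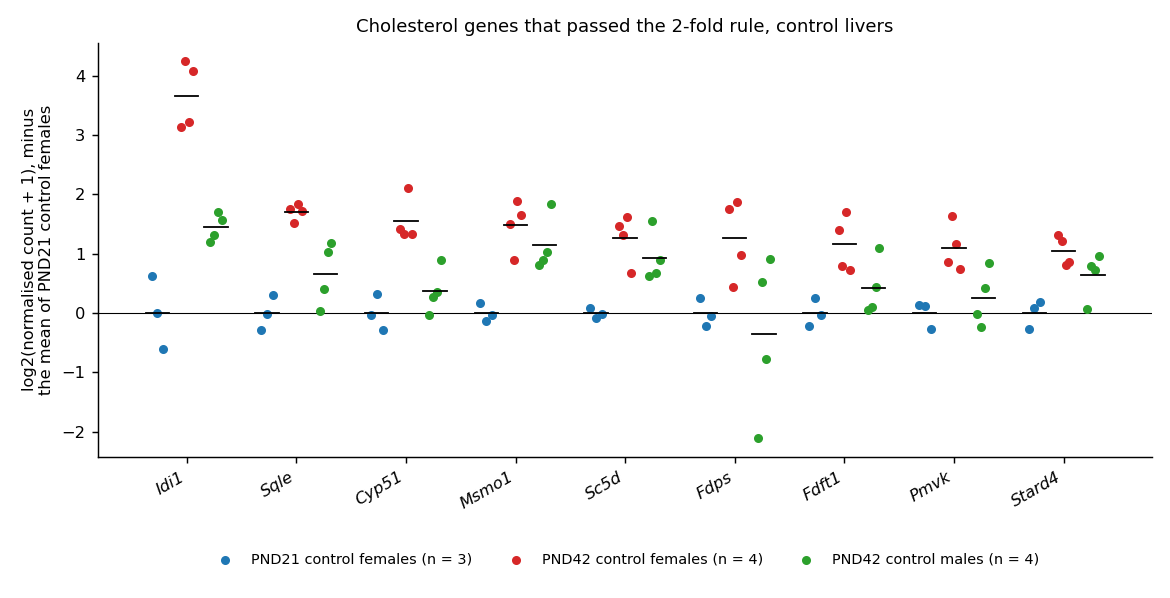
Levels of 9 of the 11 cholesterol genes that passed the 2-fold rule, as log2(normalised count + 1) minus the mean of the PND21 control females; points are libraries of PND21 females (blue, n = 3), PND42 females (red, n = 4) and PND42 males (green, n = 4), and lines are group means. The PND42 females stand above all PND21 females in each gene shown, most of all for Idi1, with a difference of 3.67.

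Synthesis of fatty acids did not move as a list. Of 23 genes tested 2 were called higher at 2-fold and 1 lower, with a median log2 difference of 0.05. The rises were in desaturases of polyunsaturated fatty acids: Fads1 by 1.40 and Fads2 by 1.77, the latter at 1388, 1501 and 1711 and then at 4029, 10550, 4139 and 4181, with PND42 replicate 3 far above the rest. Acaca, acetyl-CoA carboxylase, fell by 1.11, a call lost without PND21 replicate 1 or 3, and Fasn, fatty acid synthase, had an adjusted p of 0.308 in limma. Of 37 genes of fatty acid oxidation and ketogenesis 31 had a higher mean at PND42, with a median log2 difference of 0.378. Without overlap 16 were higher and 2 lower, where 17.3% of all genes were higher and 17.3% lower. At 2-fold 7 were called higher and 2 lower, against 2.9% and 5.75% of all genes. The lower genes were Ppara, the receptor that drives the list, at 11570, 4123 and 6499 and then at 2881, 2692, 2022 and 1948, and Cyp4a31, a fatty acid hydroxylase, at 1196, 1718 and 2837 and then at 519, 282, 233 and 686.

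Enzymes that clear foreign compounds and steroids gave more calls higher than lower. At 2-fold, where 2.9% of all genes were higher and 5.75% lower, 9 of 32 cytochrome P450 genes of xenobiotic metabolism were higher and 1 lower, 11 of 29 conjugation enzymes were higher and 0 lower, and 5 of 12 carboxylesterases were higher and 0 lower. Their median log2 differences were 0.54, 0.87 and 1.02. Without both doubted libraries, 6, 5 and 2 were higher, and the conjugation enzymes gave 7 without either one alone.

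Cyp2c37, an epoxygenase of arachidonic acid, was at 798, 2205 and 1472 at PND21 and at 10550, 12810, 9969 and 10280 at PND42, a log2 difference of 2.98 ± 0.29 (SE; limma, adjusted p = 0.00105). The PND42 libraries were within a narrow range, well above PND21. Cyp2c29 rose by 2.59, to a level of 15980 to 30190, and the PND42 males stood at 25926 ± 12133 (SD, n = 4). Cyp3a59 fell by 2.19 on the log2 scale, from 5587, 4277 and 7104 to 1013, 630, 2298 and 1465. Cyp1a2, an enzyme of caffeine and arylamine metabolism, differed by 0.18 ± 0.25 (SE; limma, adjusted p = 0.622).

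Among the conjugation enzymes, Ugt3a1, a glycosyltransferase, was at 43.9, 48.5 and 84.4 and then at 354, 922, 412 and 686, a difference of 3.26. Ugt2b37, a glucuronosyltransferase, rose by 2.32 and Ugt2b1 by 1.10. Of the carboxylesterases, which hydrolyse esters of drugs and lipids, Ces1f was at 2767, 2686 and 2429 and then at 10950, 14560, 9471 and 14910, a difference of 2.22 ± 0.20 (SE; limma, adjusted p = 0.00096). Ces2c rose by 2.74 from 23.3, 17.0 and 88.1, and Ces3b by 1.61. All 3 were also higher at PND42 without overlap in the exposed females.

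Retinoid and bile acid genes gave smaller counts, where at 2-fold 2.9% of all genes were higher and 5.75% lower. Of 21 retinoid genes 5 were higher at 2-fold and 1 lower, led by Rdh16f2, a retinol dehydrogenase, which rose by 2.32, and Aldh1a1, which makes retinoic acid, by 1.497, the latter not without PND21 replicate 1. Of 24 bile acid genes 2 were higher and 0 lower: Slc10a2, a bile acid carrier, at 157.7, 99.5 and 302 and then at 410, 947, 350 and 556, and Slc10a1, the main uptake carrier of hepatocytes, which rose by 1.00. Both calls were lost without PND21 replicate 1, and that of Slc10a2 also without PND21 replicate 2 or the unnumbered library. Cyp7a1, the rate-limiting enzyme of bile acid synthesis, differed by 0.75 ± 0.26 (SE; limma, adjusted p = 0.0621). None of 27 genes of the urea cycle and amino acid metabolism passed the 2-fold rule.

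Several growth genes of the fetal liver fell. Of 24 listed genes 14 were tested and 9 were in the PND21 table alone, so the tested genes leave out those lowest at PND42. Among the 14, 3 were called lower at 4-fold, against 1.07% of all genes, and 0 higher. At 2-fold 6 were lower, against 5.75% of all genes (4 without PND21 replicate 1, and 4 without both doubted libraries). The median log2 difference of the 14 was -0.86, and 5 of them had a higher mean at PND42. Among these 5 is Cyp3a16, a cytochrome P450 that is also a member of the female-biased list. It was the only 1 of the 14 that was higher at PND42 without overlap.

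Igf2, the imprinted fetal growth factor (chr7:142650766-142666816), was at 503, 484 and 366 at PND21 and at 16.2, 17.7, 42.5 and 9.66 at PND42. Every PND42 library was far below every PND21 library, with a log2 difference of -4.51 ± 0.42 (SE; limma, adjusted p = 0.00096). At PND1 its level was 143785 ± 32796 (SD, n = 4), so most of its loss came before PND21, and its within-library rank moved from the 50.1 to the 3.37 percentile between PND21 and PND42. Igf2bp3, which binds Igf2 mRNA, was at 982, 684 and 900 and then at 108, 58.1, 106 and 28.1, a difference of -3.66. Gpc3, a cell surface proteoglycan that restrains growth, was at 208, 315 and 213 and then at 64.0, 20.2, 29.3 and 38.6, a difference of -2.75.

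The imprinted genes Grb10, an adaptor that dampens insulin signalling, Plagl1, a zinc finger factor, and Peg3 fell by less. Grb10 was at 934, 904 and 716 and then at 224, 389, 265 and 294, a difference of -1.56. Plagl1 fell by 1.37 on the log2 scale and Peg3 by 1.23, and both calls were lost without PND21 replicate 1 or 3, that of Peg3 also without PND21 replicate 2 or PND42 replicate 3 or 4. Afp, alpha-fetoprotein, and H19, the imprinted RNA next to Igf2, were in the PND21 table alone: Afp at 628 ± 122 and H19 at 1541 ± 231 normalised counts (SD, n = 3). No fold is given for them.

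Lipoprotein lipase and some matrix genes fell as well. Lpl, which frees fatty acids from plasma triglyceride and is a gene of the neonatal liver, was at 6915, 13040 and 8802 at PND21 and at 953, 317, 2252 and 372 at PND42. The ages did not overlap, PND42 replicate 4 was the highest of its age, and the difference was -3.70 ± 0.71 (SE; limma, adjusted p = 0.0177), a call lost without PND21 replicate 2 or 3. Eln, elastin, was at 587, 990 and 623 and then at 124, 92.6, 169 and 61.4, a difference of -2.76. Col1a1, a chain of type I collagen, was at 644, 840 and 917 and then at 306, 120, 275 and 78.1, a difference of -2.23 that was not called without PND21 replicate 3, and Col3a1 fell by 1.25 on the log2 scale. Of 34 genes of the stellate cell and matrix list 11 had a higher mean at PND42. At 2-fold 6 were called lower and 2 higher, against 5.75% and 2.9% of all genes, with 4 lower without the unnumbered library. The higher genes were Lrat, which stores retinol in stellate cells, and Rgs5, a gene of vessel wall cells. In bulk tissue, fewer cells of a type and less RNA per cell cannot be told apart, here and in the cell markers below.

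Among the genes of cell division that passed, all but Ccnd1 were lower. Of 55 listed genes 36 were tested and 18 were in the PND21 table alone. At 2-fold 8 of the 36 were lower and 1 higher, against 5.75% and 2.9% of all genes. The lower count was 5 without the unnumbered library, 2 without PND21 replicate 1 and 0 without both, so it rests on these libraries. The median log2 difference was -0.76. Mki67, a mark of cycling cells, was at 390, 246 and 559 and then at 78.4, 134, 108 and 102, a difference of -1.85 ± 0.29 (SE; limma, adjusted p = 0.00414). Cdk1, the mitotic kinase, and Ccna2, cyclin A2, fell by 1.42 and 1.44, and both calls were lost without PND21 replicate 3, that of Cdk1 also without replicate 1. Uhrf1, which copies DNA methylation, fell by 2.35 (limma, adjusted p = 0.0464), a call lost without any one of 5 libraries, with scaling by total reads and with quantile normalisation. The gene that rose was Ccnd1, cyclin D1, at 1005, 604 and 1672 and then at 2263, 2559, 3293 and 3303, and its call was lost without PND21 replicate 1.

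**Figure D3:**
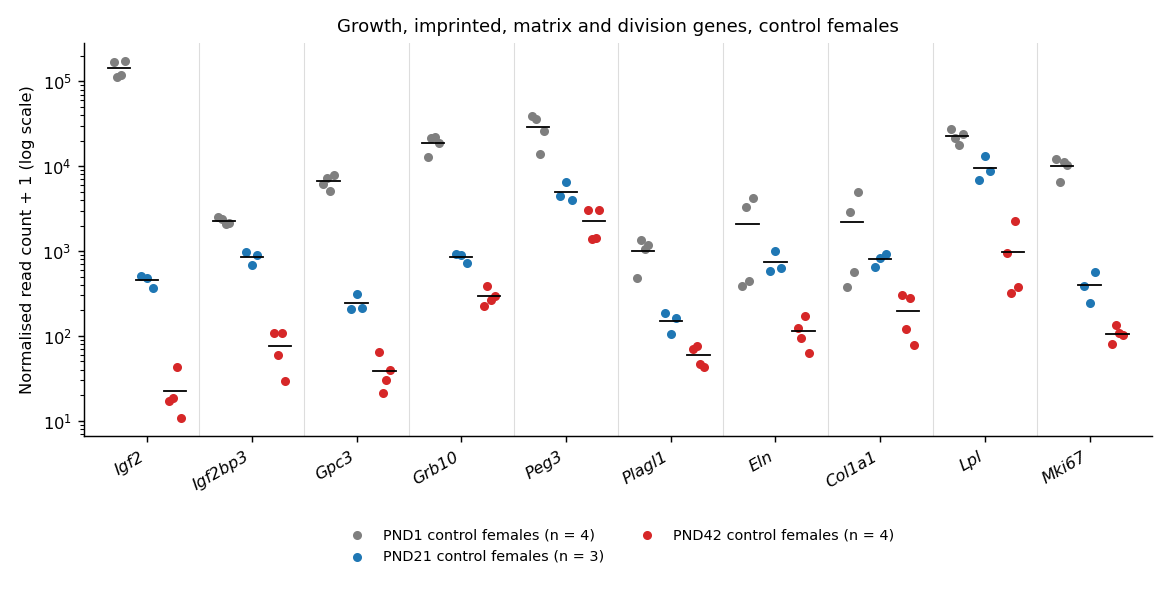
Normalised read count plus 1, on a log axis, of growth, imprinted, matrix and division genes in control females at PND1 (grey, n = 4), PND21 (blue, n = 3) and PND42 (red, n = 4); points are libraries and lines are group means. For each of the 10 genes every PND42 library lies below every PND21 library, and Igf2 had already dropped from 143785 at PND1 to under 504 at PND21.

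Red cell and platelet genes that passed fell. The summed level of the erythroid markers was 28320 to 81160 at PND21 and 7817 to 10330 at PND42, without overlap (two-sided exact permutation p = 0.0571, adjusted p = 0.109 over 21 library measures). That p is the smallest that 3 against 4 libraries allow, so no measure of this kind could pass 0.05. Of 30 erythroid markers 11 were tested and 18 were in the PND21 table alone. Among the 11, 2 were called lower at 4-fold and 5 at 2-fold, against 1.07% and 5.75% of all genes, with 0 higher. Of these 11, 2 had a higher mean at PND42. Without overlap 6 were lower and 1 higher, where 17.3% of all genes were lower and 17.3% higher. Hba-a1, an alpha-globin gene whose reads can be shared with its near copy Hba-a2, was at 40780, 57060 and 17310 and then at 2853, 1610, 3061 and 2091. Its difference was -3.88 ± 0.39 (SE; limma, adjusted p = 0.00142). Hbb-bt and Hbb-bs, adult beta-globins of near-identical sequence, fell by 2.27 and 1.64, Alas2, the heme synthesis enzyme of red cells, by 1.35, and Car2, a carbonic anhydrase, by 1.02. Alas2 did not follow the globins in the PND42 control males. It stood there at 3403 to 5962, above the 1182 to 1906 of the PND21 females, while Hba-a1 was at 2433 to 9630. The Hbb-bs call was lost without any one of 5 libraries, PND21 replicate 1 among them, and with scaling by total reads. Of 16 megakaryocyte and platelet markers 7 were tested and 9 were in the PND21 table alone. At 2-fold 4 of the 7 were lower and 0 higher, against 5.75% and 2.9% of all genes. Without both doubted libraries 0 were lower. Without overlap 5 of the 7 were lower and 2 higher at PND42. Of the platelet chemokine genes, Pf4 fell by 2.20 from a level of 71.6 to 102 counts, and Ppbp fell by 2.21 from 75.2 to 118, the latter not without PND21 replicate 1 or 3 or PND42 replicate 3. The summed levels of the white cell lists overlapped between the ages, at 416 to 626 and then 329 to 842 for B cells, 342 to 355 and then 275 to 494 for T and NK cells, and 217 to 304 and then 72.4 to 571 for neutrophils. At 2-fold, 1 of 11 B cell, 0 of 8 T and NK cell and 1 of 3 neutrophil markers tested were lower, and 0 were higher. Over all genes 5.75% were lower and 2.9% higher. Of 17 neutrophil markers 14 were in the PND21 table alone, and 0 of the 3 tested had a higher mean at PND42. The overlap of the neutrophil sums rests on PND42 replicate 2, with the other PND42 libraries at 72.4 to 87.8.

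Antigen presentation genes rose. Of 8 antigen presenting cell markers tested 4 were higher at 2-fold and 0 lower, against 2.9% and 5.75% of all genes. Among these markers 3 were higher without the unnumbered library, 3 without PND21 replicate 1 and 2 without both. Their summed level was 771 to 1161 at PND21 and 2220 to 4402 at PND42. Cd74, the invariant chain of MHC class II, was at 207, 415 and 339 and then at 1466, 905, 1051 and 1004, a difference of 1.82 ± 0.25 (SE; limma, adjusted p = 0.00272). H2-Aa rose by 1.83, H2-Ab1 by 1.52 and H2-Eb1 by 3.24, the last with PND21 replicate 2 at 9.71 and an adjusted p of 0.0446 in limma that was lost without any one of 6 libraries, both doubted libraries among them. Gm11127, a class I like gene of the H2 region whose reads can be shared with H2 genes, was at 53.5, 3.64 and 7.56 and then at 523, 364, 381 and 552. Both Gm11127 and H2-Eb1 varied widely among animals of 1 age and sex. In the PND42 control males Gm11127 ran from 0.948 to 275.6 and H2-Eb1 from 5.69 to 309. Whether differences between animals of this outbred stock have a part in these 2 genes was not tested. In the interferon-stimulated list, Gbp2, a guanylate-binding protein, rose by 2.03.

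Of the 16 Kupffer cell markers, of the liver's resident macrophages, 15 had a higher mean at PND42, with a median log2 difference of 0.65. Their summed level was 8003 to 13860 at PND21 and 14780 to 21190 at PND42, without overlap (two-sided exact permutation p = 0.0571, adjusted p = 0.109). At 2-fold 3 of the 16 were higher and 1 lower, where 2.9% of all genes were higher and 5.75% lower. The higher genes were Lyz2, lysozyme, by 1.57, Cd5l, a secreted macrophage protein, by 1.46 and Slc40a1, the iron exporter, by 1.08. Marco, a scavenger receptor, was at 208, 512 and 249 and then at 130, 134, 63.5 and 105, a difference of -1.51. Without both doubted libraries 0 of 16 passed in either direction. Whether a change in cell makeup has a part in the other gene groups was not tested.

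Mt1 and Mt2, the metallothioneins that bind zinc and cadmium, varied widely within each age. Mt1 was at 7378, 26970 and 11710 and then at 3695, 625, 14560 and 3610, with PND42 replicate 4 inside the PND21 range and an adjusted p of 0.248 in limma. Mt2 had an adjusted p of 0.320.

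**Figure D4:**
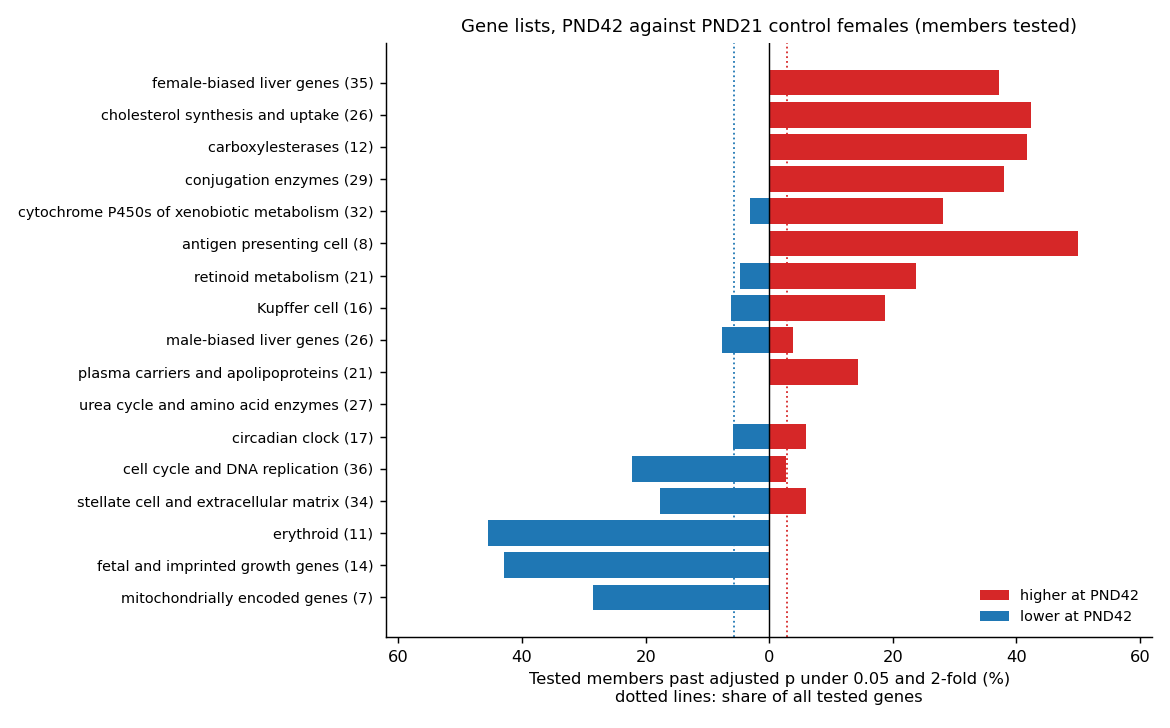
Share of the tested members of each list that passed an adjusted p under 0.05 and 2-fold, higher at PND42 to the right in red and lower to the left in blue, with the number tested in brackets; dotted lines are the shares over all genes tested, 2.9% higher and 5.75% lower. Cholesterol, conjugation, carboxylesterase and female-biased genes lie to the right, and fetal growth, erythroid and cell cycle genes to the left.

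Lists of general liver function are given by their calls at 2-fold, against 2.9% higher and 5.75% lower over all genes. Of 21 hepatocyte transcription factors 5 were lower and 1, Onecut1, higher, with 3 lower without PND21 replicate 1 and 1 without both doubted libraries. Of 21 plasma carriers and apolipoproteins 3 were higher and 0 lower, of 22 acute phase proteins 3 were higher and 1 lower, and of 32 complement and coagulation genes 2 were higher and 0 lower. Without both doubted libraries the higher counts of these were 0, 1 and 0, and leaving out the unnumbered library or PND21 replicate 1 alone gave 1 in both cases for the plasma carriers, and 4 and 1 for complement and coagulation. Among 77 nuclear genes of oxidative phosphorylation 5 were higher and 0 lower, with a median log2 difference of -0.06, and the 5 became 3 without PND21 replicate 1 and 0 without both. Among 74 ribosomal protein genes 2 were higher and 2 lower. The 7 mitochondrially encoded genes had a median of -1.04, and 2 of them were lower at 2-fold, but 0 without the unnumbered library or without PND21 replicate 1.

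Many of the large falls were in very long genes or in loci whose levels followed that of Gm42418, a locus described below. Of the 137 genes called 4-fold lower, 37 span over 300 kb, out of 345 such genes tested (10.7%), against 0.819% of genes up to 30 kb, and none of the 45 rises spans that much. The median log2 difference was 0.055 for genes up to 30 kb, 0.03 for 30 to 100 kb, -0.315 for 100 to 300 kb and -1.04 above 300 kb. A set of 11 falls, some of which also span over 300 kb, were loci whose levels followed Gm42418. Their correlation with it was at least 0.9 across the 23 libraries outside the comparison, and the set was chosen after their values were seen. The remaining 92 falls were neither, and 40 of the 137 were not protein-coding.

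Of the long genes, Plcb1, a phospholipase C, was at 5869, 2976 and 2760 and then at 700, 673, 750 and 677, a difference of -2.38 ± 0.24 (SE; limma, adjusted p = 0.00105). Prkg1, a cGMP-dependent kinase, was at 1994, 906 and 626 and then at 152.3, 103, 176 and 224, and Nrxn3, a synaptic adhesion gene, fell by 2.68. In each PND21 replicate 1 was the highest library. The imprinted antisense RNAs Airn and Kcnq1ot1, which overlap other genes so that reads cannot be assigned without strand, fell by 2.80 and 2.69. Scara5, a ferritin receptor, was at 1082, 365 and 733 and then at 52.3, 35.4, 62.1 and 212, with the unnumbered library the highest of PND42, and Filip1l fell by 2.98. The Scara5 call was lost without PND21 replicate 1.

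The mean log2 level of the genes over 300 kb was 8.31 to 9.07 per library at PND21 and 7.30 to 7.73 at PND42, against 7.25 to 8.24 in PND42 control males, 8.60 to 8.97 in the exposed females at PND21 and 8.83 to 9.18 in those at PND42. Gm42418, a locus that overlaps ribosomal RNA sequence (chr17:39846958-39848788), was at 1788000, 567400 and 1016000 at PND21 and at 204100, 36820, 185400 and 68700 at PND42, a difference of -3.35 that was not called without PND21 replicate 1. Its group of 11 loci, with Lars2, Cmss1, Cdk8, Peak1, Mir6236 and Gm23935, took 4.64% to 14.3% of reads at PND21 and 0.288% to 1.38% at PND42, with PND21 replicate 1 the highest (two-sided exact permutation p = 0.0571, adjusted p = 0.109). CT010467.1, at 3576, 1256 and 2528 and then at 97.3, 5.89, 165 and 9.66, had the largest fall of the genes called, -6.09, a call lost without any one of 5 libraries.

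The share of mitochondrially encoded reads was 12.1% to 18.3% at PND21 and 5.25% to 12.8% at PND42 (two-sided exact permutation p = 0.114, adjusted p = 0.185), against 9.04% to 24.9% in PND42 control males and 22.2% to 35.5% in PND42 exposed females. These shares, the 11 loci that follow Gm42418 and the long genes moved with age across the same 7 libraries as every gene above. Their part in the results was not tested. Without the long genes and these 11 loci, 42 genes were called 4-fold higher and 92 lower.

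**Figure D5:**
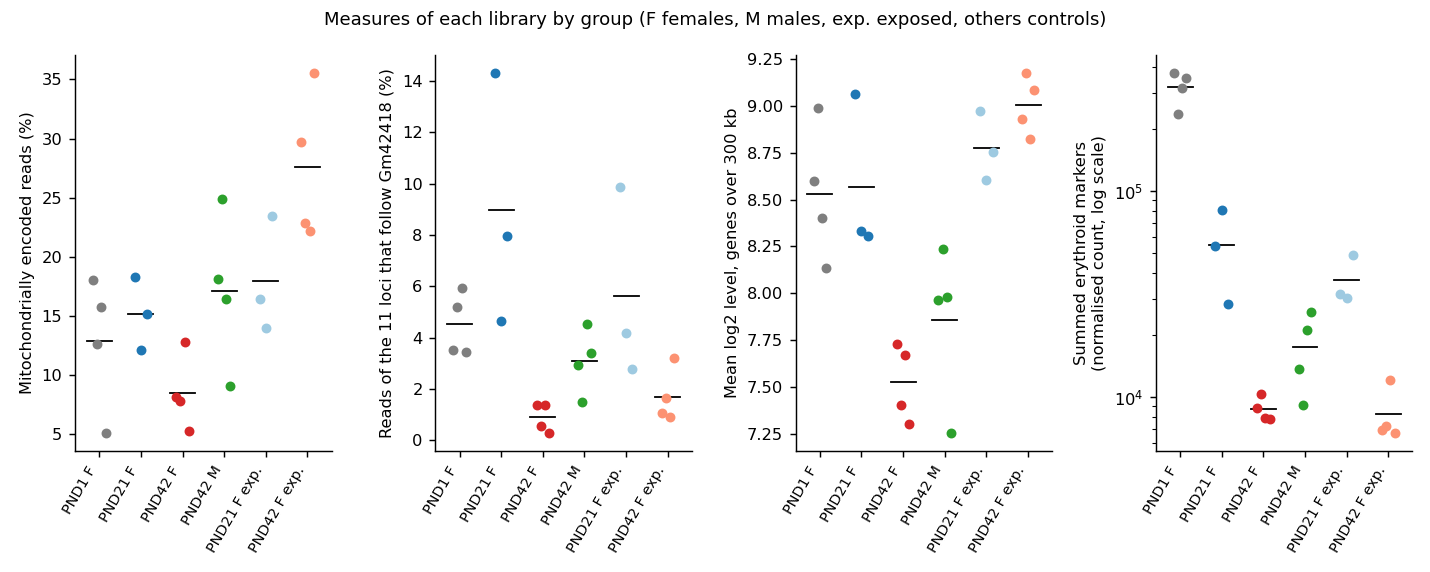
Measures of each library by group: mitochondrially encoded reads (%), reads of the 11 loci that follow Gm42418 (%), mean log2 level of genes over 300 kb, and summed erythroid markers (log axis); points are libraries, lines are means, F is female, M is male, exp. is exposed and the rest are controls. PND42 control females are low in all of these, and PND42 exposed females are high in mitochondrial share and long genes at 22.2% to 35.5% and 8.83 to 9.18.

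Ranks within each library, which do not depend on scaling between tables, moved by at least 25 percentile points without overlap in 58 genes upward (0.454%) and 112 downward (0.876%). Without both doubted libraries the counts were 52 and 80. Upward, Sult3a1 moved from the 24.5 to the 97.0 percentile, Cyp2b13 from 26.3 to 93.9, Idi1 from 3.02 to 43.4 and Dct, a melanin synthesis gene, from 12.7 to 59.0. Downward, Igf2bp3 moved from 67.7 to 15.0, Eln from 63.0 to 21.2, Hbb-bt from 86.5 to 52.8 and Lpl from 97.4 to 61.2. Gm4756, with no established role, rose from 28.7 to 81.1, at 159.1, 205 and 184 and then at 2043, 973, 2289 and 1429. Of the 35 female-biased genes 8 rose by this rule. Of the 14 genes of the fetal growth list, to which the P450 Cyp3a16 also belongs, 4 fell and 1 rose.

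Genes in only one of the tables could not be tested. The PND21 table, whose filter also took in PND1 libraries, alone held 1464 genes, with a median level of 15.8 at PND21 and 6 above 100. They included the red cell anion exchanger Slc4a1 at 158.6 ± 28.8 and the mitotic Ube2c at 146.6 ± 68.5 (SD, n = 3). The PND42 table alone held 296 genes, with a median of 25.5 and 12 above 100. Among them were Sult3a2 at 1478 ± 827, against a mean of 1.27 in males, Cyp26a1, which degrades retinoic acid, at 348 ± 234, and Mup7 at 304 ± 380 (SD, n = 4), against a mean of 18910 in males.

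In the exposed females the same ages gave other values for several groups, and the difference from the controls was not tested. Of the 137 genes called 4-fold lower in controls, 31 were so called in exposed females, and of the 45 called higher, 7 were. Over all genes tested in exposed females, 1.42% were called 4-fold lower and 0.422% higher. Without overlap, 55 of the 137 were lower and 4 higher in exposed females, and of the 45, 15 were higher and 5 lower, where 19.3% of all genes were higher without overlap and 20.7% lower. The female-biased list had a median log2 difference of -0.29 in exposed females and 1.01 in controls, and the cholesterol list -0.52 and 0.82.

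Single genes are given on the log2 scale. Igf2 fell by 6.16 in exposed females and by 4.51 in controls, and Ces1f rose by 2.38 and 2.22. Sult3a1 differed by 2.01 in exposed females (limma, adjusted p = 0.222) and by 6.57 in controls, A1bg by 1.51 (adjusted p = 0.145) and 5.90, Idi1 by -1.02 (adjusted p = 0.222) and 3.67, and Plcb1 by 0.38 (adjusted p = 0.270) and -2.38.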

How the data were processed

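Liver total RNA (integrity number 7 or above, per the labels) was read as single-end 125 bp sequence. FastQC, STAR, featureCounts and the build mm10 are named in the submitters' processing notes. Tool versions and the strand setting are not given in the sources used here. Values were deposited on a log2 scale, as the log2 of a read count over a size factor, plus 1. That scale was inferred from the numbers themselves, which return whole reads within 0.1. A count model had been planned for the case that the tables held counts, and was not used because they hold log2 values.

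Here the values were turned back into normalised counts, and the 12795 genes in both tables were rescaled together by median-of-ratios size factors. A gene was tested where 3 or more of the 7 libraries had 10 or more normalised counts, with limma (version 3.58.1, R 4.3.3, trend and robust) on log2(normalised count + 1), two-sided, with Benjamini-Hochberg adjustment over 12784 genes. Fold changes are on that scale, which understates changes of low genes. The script was tested on simulated data. Ranks are percentiles among the tested genes of a library and have no test. Library measures were compared by a two-sided exact permutation test over the 35 arrangements. The sex comparison was fitted on the deposited log2 values of the PND42 table. All columns of samples were used or assigned, and 0 were left over. Gene positions are from GENCODE vM21 on mm10, which held 99.875% of the gene identifiers.

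Named genes are the 12 highest and 12 lowest differences among 4-fold calls whose ranks do not overlap, the 8 largest rank rises and falls, up to 4 genes of lowest p from each list, and reference genes. Others, named to fill out a pathway, were chosen after their values were seen. The members and lists were chosen with earlier results of these data known. Alternatives covered scaling, filter, pseudocount, fit, left-out libraries and the replicate number as a block. Some listed genes are not reported here by name, and counts over lists include them.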

Additional observations from a re-analysis of the deposited data

Results flagged for a closer look

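Among 132 sets of 4 libraries looked at for a library far from the rest, 5 had one, where chance gives about 1 in 20. In the PND42 control females, Cyp51 was at 6645 in replicate 4 against 3875 to 4126 in the others, Fads2 at 10550 in replicate 3 against 4029 to 4181, and Airn at 314.5 in replicate 4 against 106.1 to 135.2. Scara5 was at 212.4 in the unnumbered library against 35.37 to 62.06. The summed neutrophil markers were at 570.6 in replicate 2 against 72.42 to 87.77.

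For 7 of the 111 named genes every PND42 library lay on one side of every PND21 library in control females and on the other side in exposed females. Over all genes, 17.3% were higher and 17.3% lower without overlap in controls, and 19.3% and 20.7% in exposed females. The share of all genes on opposite sides was not counted, so the 7 are given as single genes only. These differences between control and exposed females were not tested. In exposed females the log2 difference was -3.99 for Cyp3a16, against 4.22 in controls, and -1.22 for Cyp3a44, against 2.66. Of the antigen presentation and interferon genes, Gbp2 was at -0.90 against 2.03, Cd74 at -0.98 against 1.82 and H2-Aa at -0.48 against 1.83. Of the cholesterol genes, Pmvk was at -1.01 against 1.10. Ghr was the only one of the 7 to be lower in controls, at -0.56, and higher in exposed females, at 0.79.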

How the results depend on the processing

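No named gene changed direction under another scaling, filter, pseudocount or fit of the same 7 libraries. Leaving out 1 library at a time gave 29 to 61 genes higher and 60 to 194 lower at 4-fold, 1.49% to 3.48% of genes tested higher and 2.22% to 6.64% lower at 2-fold, and at least 52 rank rises and 84 rank falls, with the lowest 4-fold and 2-fold values without PND21 replicate 1. At 4-fold, 84 genes were lower with at least 100 normalised counts, which tests fewer genes, and 91 with a pseudocount of 8. Scaling by total reads gave 4.97% higher at 2-fold, and ranks among genes of at least 100 counts gave 173 falls. The cause of these was not tested. Without both doubted libraries, which leaves 2 against 3, the counts were 22 and 40 at 4-fold, and at 2-fold 0.815% of genes tested were higher and 1.15% lower. Of 111 named genes, not all of which were called with 7 libraries, 53 then lost an adjusted p under 0.05 and none changed direction.

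Replicate numbers 2 and 3 occur at both ages, and deviations of same-numbered libraries correlated at 0.092 and 0.075 across genes, so the number was not taken to pair them. The animal tags of the replicate 2 libraries begin with the same digits, as do those of PND21 replicate 1 and the unnumbered library (correlation 0.078); the labels do not say what the digits mark. With those digits as a block, chosen after seeing the data, 51 genes were higher and 95 lower at 4-fold, and 1.75% and 2.64% of genes tested at 2-fold. Of the 111 named genes, not all of which were called without a block, 36 lost an adjusted p under 0.05. With the replicate number as a block over the numbered libraries, 32 genes were higher and 53 lower at 4-fold, 0.712% of genes tested were higher and 1.01% lower at 2-fold, and 220 passed an adjusted p under 0.05, against 2583. Under the block Cux2 was at -0.27 and Srebf2 at -0.026, opposite in sign to the values with 7 libraries. Leaving out 1 library gave -0.14 to 1.02 for Cux2 (below 0 without PND42 replicate 2) and -0.26 to 0.73 for Hmgcs1 (below 0 without PND42 replicate 2 or 4). The mitochondrial share differed by -8.21 to -5.10 percentage points when 1 library was left out. The share of the 11 loci that follow Gm42418 differed by -10.2 to -5.41 and the long-gene mean by -1.18 to -0.80. Genes near 10 counts carry the largest counting error.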
